A study of Mus musculus with 6 samples.

Results

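Annexins are cytoplasmic proteins that bind acidic membrane lipids such as phosphatidylserine when calcium is present. The described set held 8 of them, Anxa1, Anxa3, Anxa4, Anxa5, Anxa6, Anxa7, Anxa8 and Anxa11, taken by gene symbol from a table of 56691 mouse gene identifiers, where all 8 were found and passed the filter on low counts. CTM libraries (3) came from circulating tumour micro-emboli, tumour cell clusters recovered from blood on a chip in mice whose breast cancer had spread to the lung. 4T1 libraries (3) came from cultured 4T1 cells, a mouse mammary carcinoma line, with a low adherence culture named in their titles and DMEM with fetal bovine serum and penicillin-streptomycin in the growth protocol. The mouse strain, age and number, and whether libraries of a group came from separate animals or cultures, are not stated in the labels. A p-value here reflects how these libraries vary, and that variation may be technical. The labels name no genetic change or drug in either group, and growth in a mouse, passage through blood and capture on the chip all set CTM apart from 4T1, so their parts cannot be told apart.

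Family members share a core of repeats that holds the calcium sites and differ in their N-terminal ends, which bind partners such as S100 proteins. The family takes part in membrane repair, in vesicle traffic and, outside the cell, in inflammation and clotting, where annexin A1 acts on formyl peptide receptors and annexin A5 shields exposed phosphatidylserine. In breast tissue and its tumours annexins are made by the epithelial cells as well as by stromal and blood cells.

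Annexin transcripts moved in both directions. Anxa4, Anxa7 and Anxa8 were higher in CTM, by 1.71-fold, 1.35-fold and 2.39-fold. Anxa3, Anxa1 and Anxa5 were lower in CTM, by 2.77-fold, 1.92-fold and 1.42-fold, while Anxa6 and Anxa11 did not pass the test. The test was the quasi-likelihood F test of edgeR, two-sided, with a Benjamini-Hochberg adjusted p below 0.05 over all 16414 genes tested. Over those genes 27.9% passed, 14.2% higher and 13.7% lower in CTM, and their median log2 fold change was -0.0245, where the 8 annexins had -0.091. In bulk libraries such as these, fewer cells of a type and less RNA per cell cannot be told apart.

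The deposited estimated counts summed to 69178212 to 71595766 per library, and the annexin counts lay between 207 and 83672. Replicates 2 and 3 of each group were closer to each other than to replicate 1. Their root mean square difference in log2 CPM, where CPM are counts per library scaled to a common size with TMM, was 0.649 in CTM and 0.617 in 4T1, where the remaining pairs of a group differed by 0.763 to 0.928. With the mean of replicates 2 and 3 counted as 1 sample, a choice made after seeing the data, Anxa3 alone of the 8 still passed, at an edgeR adjusted p of 0.0438, and the other 5 called members had adjusted p from 0.0617 to 0.144. That averaging also lowered the calls over all genes to 276 higher and 200 lower. Krt8 and Krt18, keratins of the tumour cells, were present in every library, Krt8 at 533 CPM or more. Krt14 was at 0.387 CPM or less and Epcam at 0.669 CPM or less in both groups. The 8 epithelial tumour genes summed to 1663 to 1773 CPM in CTM and 1855 to 2210 CPM in 4T1, with Krt5 at 0 in all libraries. Of the 6 tested 1 rose, Krt19 by 2.86-fold. The 3 that fell were Krt8, Krt7 and Cdh1, by 1.36-fold, 3.17-fold and 3.99-fold. Cdh1 had 14.8, 13.1 and 15.2 CPM in the CTM libraries, against 113, 27.8 and 31.0 CPM in the 4T1 libraries. Its fold thus rested largely on 4T1 replicate 1. Over all genes tested 14.2% rose and 13.7% fell. Liver genes were present in both groups, the cultured line included, and 8 of them summed to 209.7 to 711 CPM in CTM and 776 to 829 CPM in 4T1.

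The start regions of the members called in each direction are shown for the letters of 4 short motifs. They were ACGTG, the core of the hypoxia response element, GGAATG, bound by TEAD factors, TGANTCA, bound by AP-1, and TATAAA, the TATA box. RefSeq sequences of the 250 bases before a gene start were at hand for 6 of the 8 annexins, with 8 starts in all. The lines below show Anxa1 (chr19:20390672-20390921, minus strand) and Anxa5 (chr3:36475888-36476137, minus strand), which fell, and Anxa7 (chr14:20479942-20480191, minus strand, the downstream of 2 listed starts) and Anxa8 (chr14:34085729-34085978, plus strand), which rose. All are given 5′ to 3′ on the gene's strand in build GRCm38.p6, with matches on either strand in capitals.
Anxa1 promoter: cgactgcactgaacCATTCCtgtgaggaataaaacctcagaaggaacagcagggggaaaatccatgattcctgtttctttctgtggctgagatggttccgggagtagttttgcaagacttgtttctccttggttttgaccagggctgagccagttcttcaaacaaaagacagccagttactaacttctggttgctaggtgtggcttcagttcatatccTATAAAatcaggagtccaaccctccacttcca
Anxa5 promoter: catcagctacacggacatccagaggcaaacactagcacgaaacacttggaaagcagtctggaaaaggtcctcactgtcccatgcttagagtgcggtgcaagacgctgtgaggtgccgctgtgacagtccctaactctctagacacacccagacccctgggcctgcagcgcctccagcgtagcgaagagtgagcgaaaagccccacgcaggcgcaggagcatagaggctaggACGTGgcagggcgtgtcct
Anxa7 promoter: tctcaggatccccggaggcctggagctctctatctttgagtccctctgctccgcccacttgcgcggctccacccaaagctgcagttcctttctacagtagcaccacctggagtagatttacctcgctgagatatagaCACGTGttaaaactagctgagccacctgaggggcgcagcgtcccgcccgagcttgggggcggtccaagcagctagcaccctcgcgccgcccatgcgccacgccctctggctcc
Anxa8 promoter: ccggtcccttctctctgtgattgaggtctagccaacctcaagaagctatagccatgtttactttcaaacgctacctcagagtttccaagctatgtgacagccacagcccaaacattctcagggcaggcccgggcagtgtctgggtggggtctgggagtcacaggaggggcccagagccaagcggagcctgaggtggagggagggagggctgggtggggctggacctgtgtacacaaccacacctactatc
ACGTG was found before the Anxa5 start and before this Anxa7 start, where the palindrome CACGTG gives overlapping matches on both strands. It occurs in 16.6% of 32851 mouse start regions of the same length. The Anxa1 region held TATAAA, which 12.4% of all regions hold, and CATTCC, the reverse complement of GGAATG, which 12.6% hold. TGANTCA, present in 6.75% of all regions, was in none of the 8. The Anxa8 region and both Anxa4 starts held none of the 4 motifs. One member with ACGTG rose and one fell. These matches are letters in a window and not shown binding sites.

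Among the members that rose, Anxa4, an annexin of epithelial cells that binds membranes of the secretory pathway, had 206, 214 and 221 normalised CPM in the CTM libraries, against 120.0, 127 and 128 CPM in the 4T1 libraries. The groups lay well apart and each was tight, at 213 ± 7.59 against 125 ± 4.48 CPM (SD, n = 3 each). The log2 fold change was 0.77 with a 95% interval of 0.58 to 0.96 (edgeR adjusted p = 0.00121). It was 0.78 for replicate 1 of both groups and 0.77 for replicates 2 and 3 of both groups.

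Anxa7, also called synexin, which joins membranes and has a long N-terminal end, had 362, 319 and 317 CPM in the CTM libraries, against 222, 258 and 257 CPM in the 4T1 libraries. The groups did not overlap, with CTM replicate 1 the highest and 4T1 replicate 1 the lowest library. The means were 333 ± 25.5 and 245 ± 20.5 CPM (SD, n = 3 each) and the log2 fold change was 0.44, from 0.20 to 0.68 (edgeR adjusted p = 0.0181). The call was lost without CTM replicate 2 and without 4T1 replicate 2, at adjusted p of 0.0567 and 0.0502. The log2 difference was 0.71 for replicate 1 of both groups and 0.30 for replicates 2 and 3 of both groups.

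Anxa8, a low-abundance annexin of stratified epithelia, had 5.94, 7.27 and 7.60 CPM in CTM and 2.88, 2.92 and 2.92 CPM in 4T1. All CTM libraries were above all 4T1 libraries, and the 4T1 values were nearly equal. Means were 6.94 ± 0.875 and 2.91 ± 0.0252 CPM (SD, n = 3 each). The log2 fold change of 1.26, from 0.84 to 1.67, was the largest rise of the 8 (edgeR adjusted p = 0.00322). The gene stood on the fewest counts of the set, 405 to 522 per CTM library and 207 to 211 per 4T1 library.

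**Figure D1:**
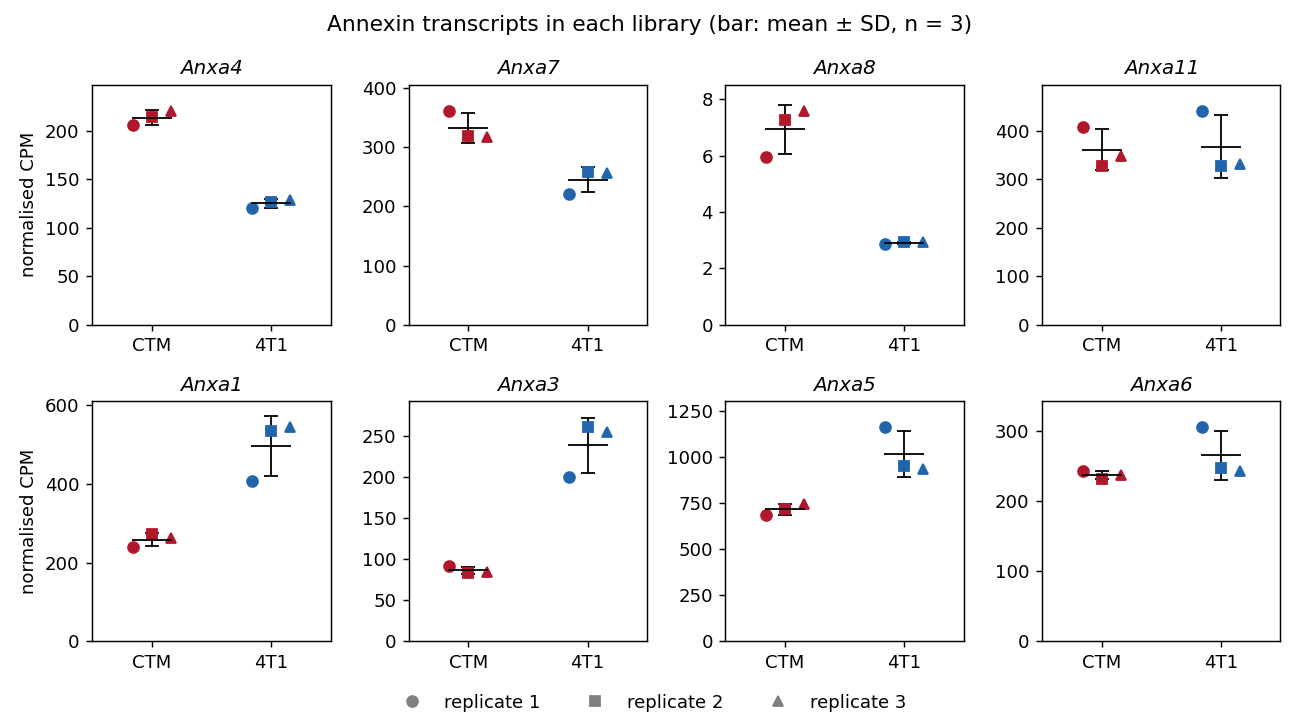
Normalised CPM (vertical axis, from 0) of each annexin in the CTM and the 4T1 libraries, with 1 point per library, the mean and the SD. Anxa4, Anxa7 and Anxa8 lie higher in CTM without overlap, Anxa1, Anxa3 and Anxa5 lie lower without overlap, and the groups overlap for Anxa6 and Anxa11.

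Anxa3, an annexin abundant in neutrophils and some epithelia, fell the most. Its levels were 91.5, 83.4 and 84.2 CPM in the CTM libraries, against 200.2, 261 and 255 CPM in the 4T1 libraries. Every CTM library was below every 4T1 library, at 86.3 ± 4.49 against 239 ± 33.6 CPM (SD, n = 3 each). The log2 fold change was -1.47, from -1.76 to -1.18 (edgeR adjusted p = 0.000703). It was -1.13 for replicate 1 of both groups, where 4T1 was lowest, and -1.62 for replicates 2 and 3.

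Anxa1, the lipocortin that acts on formyl peptide receptors, had 239.9, 272 and 261 CPM in the CTM libraries, against 407, 535 and 544 CPM in the 4T1 libraries. The 4T1 libraries were all higher, with replicate 1 the nearest to CTM. Means were 258 ± 16.2 and 495 ± 76.6 CPM (SD, n = 3 each), with a log2 fold change of -0.94, from -1.25 to -0.64 (edgeR adjusted p = 0.00290). The log2 difference was -0.76 for replicate 1 of both groups and -1.02 for replicates 2 and 3.

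Anxa5, the phosphatidylserine-binding protein used to stain dying cells, had 687, 717 and 743 CPM in the CTM libraries, against 1163, 953 and 938 CPM in the 4T1 libraries. Here 4T1 replicate 1 was the farthest from CTM, not the nearest. Means were 716 ± 28.1 and 1018 ± 125 CPM (SD, n = 3 each), and the log2 fold change was -0.51, from -0.75 to -0.26 (edgeR adjusted p = 0.0113). It was -0.76 for replicate 1 of both groups and -0.37 for replicates 2 and 3 of both groups, smaller in the close pairs. The call held only narrowly without CTM replicate 1, 2 or 3, at edgeR adjusted p of 0.049982, 0.0486 and 0.0489.

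Anxa6, whose core is duplicated, had 244, 232 and 237 CPM in the CTM libraries, against 306, 248 and 243 CPM in the 4T1 libraries. Only 4T1 replicate 1 stood clear of the rest, and the log2 fold change of -0.16, from -0.42 to 0.095, did not pass (edgeR adjusted p = 0.310). Anxa11, a partner of RNA granules and lysosomes with a long N-terminal end, had 409, 327 and 349 CPM in the CTM libraries, against 442, 327 and 332 CPM in the 4T1 libraries. In both groups replicate 1 was the highest, and the groups overlapped. The log2 fold change was -0.022, from -0.37 to 0.33 (edgeR adjusted p = 0.928), and its sign changed in 5 of 18 alternatives. The interval does not exclude a change of the size seen for Anxa6.

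Groups did not overlap for 6 of the 8 annexins, the same 6 that passed, against 48.3% of all genes tested. Of the 6, 3 lay above 4T1 in CTM, as 24.8% of all genes did, and 3 below, as 23.5% did. The replicate 1 pair gave smaller differences than the other pairs for Anxa1, Anxa3 and Anxa8 and larger ones for Anxa5 and Anxa7, with Anxa4 alike in both.

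**Figure D2:**
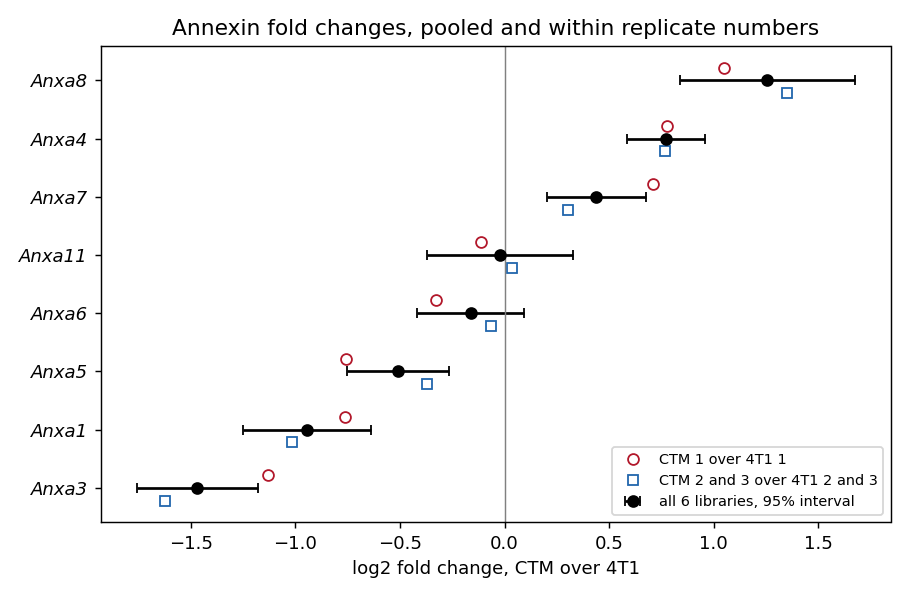
Log2 fold change of CTM over 4T1 for each annexin (horizontal axis), from all 6 libraries with the 95% interval (black), from replicate 1 of each group alone (open circles) and from replicates 2 and 3 alone (open squares). The 6 called members keep their sign within both sets, and Anxa4 has nearly the same value in both.

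Blood and liver cells can carry annexins of their own, and neutrophils are rich in annexins A1 and A3. The summed level of 11 neutrophil genes was 13.01 to 26.0 CPM in CTM and 9.10 to 22.4 CPM in 4T1, mostly S100a8, and Ly6g, Mpo, Ngp and Retnlg were at 0 throughout. The 10 platelet genes summed to 196 to 222 CPM in CTM and 179 to 319.9 CPM in 4T1, most of it Itgb3, with Gp6 and Tubb1 at 0. Of the 5 platelet genes tested 2 rose, both without overlap, and 3 did not pass, with a median log2 fold change of -0.154. Those 3, Pf4, Ppbp and Itgb3, had log2 fold changes of -0.902, -0.154 and -0.184. Over all genes tested 14.2% rose, 13.7% fell and 24.8% lay above 4T1 in every CTM library. Itga2b, an integrin chain of platelets, rose 2.78-fold, with 8.16 ± 1.34 CPM for CTM against 2.94 ± 0.217 CPM for 4T1 (n = 3 each, SD; adjusted p = 0.00245 with edgeR). Gp1ba, a chain of the platelet receptor for von Willebrand factor, was low in both groups, at 0.646 ± 0.106 CPM for CTM against 0.102 ± 0.0575 CPM for 4T1, and rose 6.27-fold (n = 3 each, SD; adjusted p = 0.0127 with edgeR). The 10 monocyte and macrophage genes summed to 167 to 368 CPM in CTM and 48.1 to 92.7 CPM in 4T1. Of the 8 tested 2 rose, Cd68 and Mrc1, and 6 did not pass, with a median log2 fold change of -0.41. Cd68 made up most of the CTM sums, with 351, 155 and 147 CPM in the CTM libraries, against 23.5, 26.4 and 28.4 CPM in the 4T1 libraries. Csf1r, Cd14 and C1qa lay below 4T1 in every CTM library without passing. Csf1r had 0.543, 0.0739 and 0.175 CPM in the CTM libraries, against 32.6, 0.692 and 0.595 CPM in the 4T1 libraries, and Lyz2 was at 0.415 CPM or less throughout. The 7 pan-leukocyte genes summed to 3.26 to 9.08 CPM in CTM and 2.57 to 5.38 CPM in 4T1. None of the 5 tested passed and their groups overlapped, with a median log2 fold change of 2.07. Ptprc had 0.161, 1.08 and 1.34 CPM in the CTM libraries and at most 0.277 CPM in 4T1. The 6 B cell genes summed to 0.0734 to 6.78 CPM in CTM and 0.415 to 0.526 CPM in 4T1, and neither of the 2 tested passed. Ighm, the heavy chain of immunoglobulin M, had 0, 3.07 and 3.13 CPM in the CTM libraries and at most 0.138 CPM in 4T1, so that CTM replicates 2 and 3 stood apart from replicate 1. Endothelial genes summed to 15.6 to 22.4 CPM in CTM and 30.8 to 33.9 CPM in 4T1, most of it Egfl7. Of the 4 tested 2 fell, Cdh5 and Egfl7, where 13.7% of all genes tested fell. The other 2, Pecam1 and Tie1, did not pass, at log2 fold changes of 0.328 and -0.515. The 8 hepatocyte genes lay below every 4T1 value in every CTM library, as 23.5% of all genes tested did, and none passed the test. CTM replicate 1 lay nearest to 4T1. Fgg had 72.4, 34.8 and 5.91 CPM in the CTM libraries, against 72.8 CPM in the lowest 4T1 library. The part of the epithelial, neutrophil, platelet, monocyte, pan-leukocyte, B cell, endothelial and hepatocyte genes in the annexin differences was not tested.

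Ratios of counts within a library do not depend on how libraries are scaled. Anxa3 counts per Anxa4 count were 0.445, 0.390 and 0.381 in CTM and 1.67, 2.06 and 1.99 in 4T1. Anxa4 thus had the higher count in every CTM library and Anxa3 in every 4T1 library. Anxa1 counts per Anxa4 count were 1.17, 1.27 and 1.18 in CTM and 3.39, 4.23 and 4.23 in 4T1. Anxa5 counts per Anxa7 count were 1.90, 2.25 and 2.35 in CTM and 5.24, 3.70 and 3.66 in 4T1. Each ratio sets a member that fell over one that rose, so the choice of genes fixed its direction and the gap between groups, and the values are given as a description. The summed CPM of the 8 annexins was 2212 ± 37.3 in CTM, against 2758 ± 90.3 in 4T1 (n = 3 each, SD). Anxa5 held the largest share of that sum in both groups, at 32.4 ± 1.54% in CTM, against 36.8 ± 3.28% in 4T1 (n = 3 each, SD). The share of Anxa7 was 15.0 ± 0.972% in CTM, against 8.92 ± 1.02% in 4T1 (n = 3 each, SD).

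**Figure D3:**
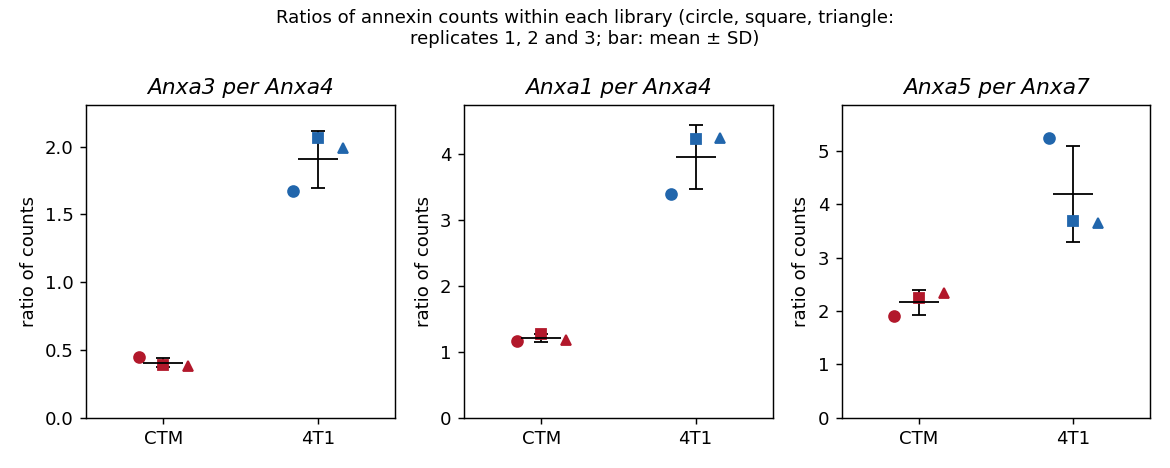
Ratio of the counts of 2 annexins in each library (vertical axis, from 0), with 1 point per library, the mean and the SD. The CTM libraries lie at 0.381 to 0.445 Anxa3 counts per Anxa4 count and the 4T1 libraries at 1.67 to 2.06, and the other ratios are also lower in CTM, a direction fixed by the choice of genes.

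Levels of the 8 annexins of the set were compared per kilobase of coding length. In CTM Anxa5 led at 748 ± 29.3 CPM per kb, followed by Anxa1 at 248 ± 15.6, Anxa11 at 239.6 ± 28.0, Anxa7 at 229 ± 17.5 and Anxa4 at 223 ± 7.93 (SD, n = 3 each). Each of Anxa1, Anxa11, Anxa7 and Anxa4 overlapped its neighbour in this order. Anxa6 at 118 ± 3.05, Anxa3 at 89.1 ± 4.63 and Anxa8 at 7.07 ± 0.892 CPM per kb followed without overlap (SD, n = 3 each). In 4T1 the order was Anxa5 at 1064 ± 131 CPM per kb, Anxa1 at 477 ± 73.8, Anxa3 at 247 ± 34.7, Anxa11 at 243 ± 43.1, Anxa7 at 169 ± 14.1, Anxa6 at 132 ± 17.3, Anxa4 at 131 ± 4.68 and Anxa8 at 2.96 ± 0.0257 (SD, n = 3 each). Of the neighbours in 4T1, Anxa3 and Anxa11, and Anxa6 and Anxa4, overlapped. Anxa3 thus stood at place 7 of the 8 in CTM and at place 3 in 4T1. With the length of the longest transcript in place of coding length, Anxa3 kept both places, while Anxa6 and Anxa4 changed places in CTM (5 and 6) and Anxa6 and Anxa7 changed places in 4T1 (5 and 6).

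Neither of the 2 tested annexins outside the set passed. Anxa2, the partner of S100a10 in a complex that binds plasminogen, had 1303, 1252 and 1246 CPM in the CTM libraries, against 1018, 1173 and 1176 CPM in the 4T1 libraries. The groups did not overlap, but the log2 fold change of 0.17, from -0.021 to 0.37, did not pass (edgeR adjusted p = 0.160). Anxa9 averaged 4.29 ± 0.796 CPM for CTM against 6.25 ± 0.820 CPM for 4T1 and did not pass (n = 3 each, SD; adjusted p = 0.0932 with edgeR). Anxa13 was too low to test, at 0.0588 CPM in CTM and 0.0508 in 4T1, and Anxa10 had no count in any library.

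Small calcium-binding partners of the annexins were described next. S100a11, which binds the N-terminal end of annexin A1, had 198, 220.1 and 208 CPM in the CTM libraries, against 421, 442 and 446 CPM in the 4T1 libraries. The groups lay apart, with a log2 fold change of -1.06 ± 0.081 (SE; edgeR adjusted p = 0.000561). S100a6, a partner of annexin A11, had 258, 296 and 276 CPM in the CTM libraries, against 696, 585 and 626 CPM in the 4T1 libraries, a log2 fold change of -1.20 ± 0.099 (SE; edgeR adjusted p = 0.000690). S100a6 thus fell where Anxa11 did not pass. S100a10, the partner of annexin A2, had a log2 fold change of -0.12, from -0.31 to 0.067, and did not pass (edgeR adjusted p = 0.302). Pdcd6, which encodes ALG-2, a calcium sensor that binds annexins A7 and A11, averaged 69.2 ± 4.77 CPM for CTM against 58.2 ± 1.64 CPM for 4T1 (n = 3 each, SD; adjusted p = 0.0822 with edgeR). Sri, the annexin A7 partner sorcin, averaged 48.4 ± 1.96 CPM for CTM against 64.6 ± 14.01 CPM for 4T1 (n = 3 each, SD; adjusted p = 0.104 with edgeR). Of the 10 genes of this list that were tested, 3 fell, S100a4 being the last of them, none rose and 7 did not pass, among them S100a14 and S100a16 with log2 fold changes of 0.94 and 0.88 (edgeR adjusted p of 0.0668 and 0.126). The median log2 fold change of the list was 0.065, against -0.0245 for all genes tested, of which 14.2% rose and 13.7% fell.

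Transcripts of the annexin A1 receptors were near the floor in both groups. Fpr1 had at most 0.0591 CPM in CTM and 0.445 CPM in 4T1, and Fpr2 at most 0.0873 CPM in CTM and 0.278 CPM in 4T1. Pla2g4a, the cytosolic phospholipase that annexin A1 is known to inhibit, averaged 111 ± 5.18 CPM for CTM against 126 ± 33.5 CPM for 4T1 and did not pass (n = 3 each, SD; adjusted p = 0.492 with edgeR). Pla2g15, a lysosomal phospholipase, was the 1 of 5 tested genes of its list that passed, at 80.7 ± 10.5 CPM in CTM, against 44.5 ± 3.64 in 4T1 (n = 3 each, SD; adjusted p = 0.00347 with edgeR). Ptgs2, the inducible cyclooxygenase, had 579, 768 and 760 CPM in the CTM libraries, against 550, 139 and 136 CPM in the 4T1 libraries (edgeR adjusted p = 0.107). Its 4T1 replicate 1 lay near CTM and far from the other 4T1 libraries. Pla2g6, a calcium-independent phospholipase, had a log2 fold change of 0.12 and did not pass (edgeR adjusted p = 0.523). Over all genes tested 27.9% passed.

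Membrane repair draws on annexins together with ferlins, calpains, caveolar proteins and the ESCRT machinery. Of 19 tested genes of this list 4 rose, 5 fell and 10 did not pass, where 14.2% of all genes tested rose and 13.7% fell. The median log2 fold change of the list was -0.13, against -0.0245 for all genes tested. The fallers were Myof, the ferlin myoferlin, Ehd1 and Ehd2, which shape membranes, Cavin1, a caveolar coat gene, and Capns1, the small calpain subunit. Myof had 341, 346 and 365 CPM in the CTM libraries, against 669.7, 651 and 658 CPM in the 4T1 libraries, a log2 fold change of -0.91 ± 0.073 (SE; edgeR adjusted p = 0.000645). Ehd1 averaged 168 ± 17.7 CPM for CTM against 399 ± 63.6 CPM for 4T1, and Ehd2 averaged 148 ± 37.7 CPM for CTM against 368 ± 8.87 CPM for 4T1 (n = 3 each, SD; adjusted p of 0.00149 and 0.00325 with edgeR). The risers were Capn1, a calpain that cleaves repair proteins, and the ESCRT genes Chmp2b, Chmp4b and Vps4b. Vps4b, the ATPase that takes ESCRT filaments apart, averaged 103 ± 2.51 CPM for CTM against 79.6 ± 2.10 CPM for 4T1 (n = 3 each, SD; adjusted p = 0.0125 with edgeR).

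Phosphatidylserine, the lipid that annexin A5 binds, is kept inside the cell by flippases and released to the surface by scramblases. Of 15 tested genes of this list 1 rose, 1 fell and 13 did not pass, with a median log2 fold change of -0.11. For this list and the next, the shares over all genes tested were 14.2% higher and 13.7% lower. Atp11b, a flippase gene, averaged 168 ± 8.97 CPM for CTM against 125 ± 4.85 CPM for 4T1, and Atp10a, a flippase gene of another lipid preference, averaged 15.2 ± 4.10 CPM for CTM against 45.8 ± 8.42 CPM for 4T1 (n = 3 each, SD; adjusted p of 0.00948 and 0.00392 with edgeR). Atp10d, next in order of p, did not pass, at a log2 fold change of -0.42 (edgeR adjusted p = 0.0554). Among 13 tested genes listed as other calcium-dependent lipid binders 3 rose, Syt7, Rasa4 and Itpka, and 2 fell, Esyt1 and Esyt2, with a median log2 fold change of 0.21. Itpka encodes a calmodulin-regulated kinase of a soluble inositol phosphate and is not itself such a binder. Esyt2, a tether between the endoplasmic reticulum and the plasma membrane, averaged 211 ± 11.2 CPM for CTM against 370.4 ± 60.7 CPM for 4T1, and Rasa4, a calcium-regulated Ras inhibitor, averaged 101 ± 6.64 CPM for CTM against 56.5 ± 10.98 CPM for 4T1 (n = 3 each, SD; adjusted p of 0.00527 and 0.00765 with edgeR). Esyt1 averaged 90.2 ± 4.11 CPM for CTM against 131 ± 14.1 CPM for 4T1 (n = 3 each, SD; adjusted p = 0.00999 with edgeR).

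**Figure D4:**
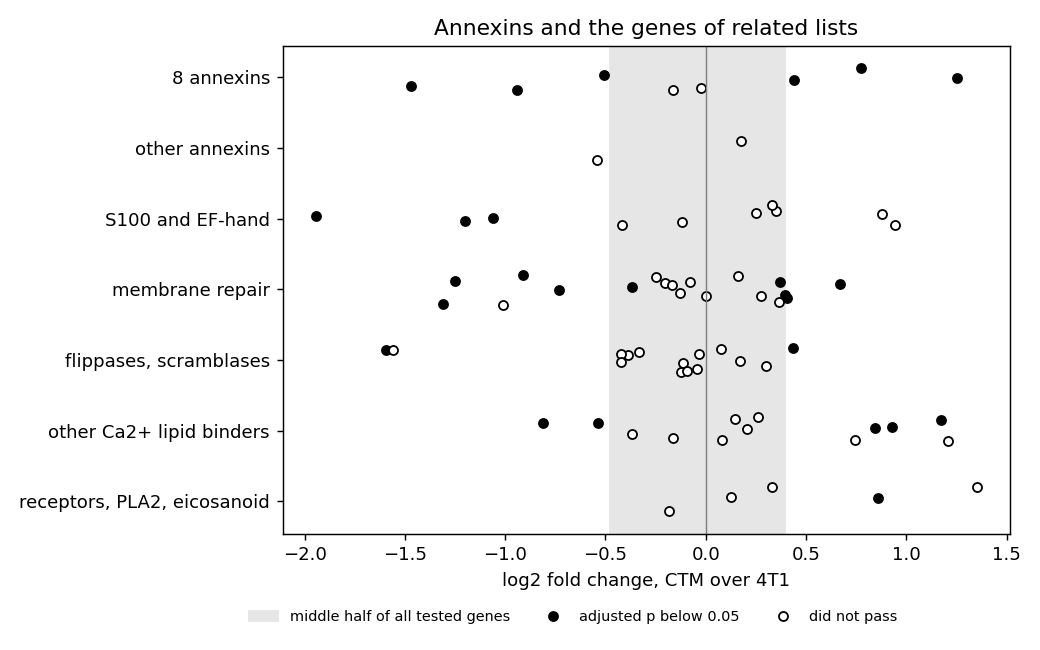
Log2 fold change of CTM over 4T1 (horizontal axis) for every tested gene of the annexin set and of 6 related lists, filled where the adjusted p was below 0.05. The grey band is the range between the quartiles of all tested genes, from -0.479 to 0.397, and every list holds values on both sides of 0.

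Among the genes whose pattern over the 6 libraries was most like that of Anxa4, the riser with the smallest p, by the root mean square distance of centred log2 CPM among 9006 genes, were Os9 at 0.0242 and Pcmtd2 at 0.0325. Os9 encodes a lectin of protein quality control in the endoplasmic reticulum. For Anxa3, the faller with the smallest p, they were Kif2c at 0.0514, Kpna2 at 0.0597 and Ccnb2 at 0.0639, which encode a microtubule depolymerase, an importin and a mitotic cyclin. Their log2 fold changes were -1.41, -1.51 and -1.50. Choosing genes by this distance over both groups largely fixed such values near that of the member. A link between these genes and the annexins was not tested. Of the 12 genes listed as known responders to low oxygen, 11 were found by symbol and all 11 rose, where 14.2% of all genes tested did. Ca9 was not found under that symbol and was not examined. This list was chosen with earlier results of these data known. Its median log2 fold change was 2.37, beyond that of any annexin. The 3 of the list with the smallest p were Ero1l, Higd1a and Ndrg1, with log2 fold changes of 2.37, 2.72 and 2.77.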

How the data were processed

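Per the labels' protocols, an ultra low input kit was used to extract and amplify RNA for all 6 libraries. The submitters' processing notes list edgeR, HISAT2 2.0.4 and Bowtie 0.12.2 and give mm8 as the build, without roles. Not given in the sources used here were counter and annotation. The deposited values are estimated counts for Ensembl genes, for which the test planned for counts was kept. They are whole numbers that the authors did not scale to a fixed total. Low values pile up at 4 (in CTM replicate 1, 964 genes at 4, against 398 at 3 and 245 at 5). So 1 unit need not be 1 read, and counting error may exceed what the totals of 69178212 to 71595766 imply.

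Libraries were grouped by their label descriptions. Symbols were found for 52073 of 56691 identifiers through a mouse symbol table. The filterByExpr function kept 16414 genes, TMM factors were 0.952 to 1.04, and the quasi-likelihood F test (edgeR 4.0.16, R 4.3.3) used the 6 libraries together with no block. Intervals and SE of the log2 fold change come from its F statistic. The biological coefficient of variation was 28.1%. The script was tested on simulated data in which 16214 of 16414 genes were unchanged. It called 2 of 44 tested genes with a 1.5-fold change, 12 of 46 with 2-fold and 46 of 49 with 8-fold in the right direction. Far more genes passed in the real libraries, so these shares do not carry over to them. SD are over 3 normalised CPM values. Coding and transcript lengths are from GENCODE M21 and promoters from RefSeq. No gene coordinates of the counts are given, since the builds differ. Antisense Anxa11os and other genes overlapping exons of Anxa3, Anxa4 or Anxa11 had at most 17 counts.

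The members and lists were chosen with earlier results of these data known. Named were all annexins, direct partners, up to 3 genes with the smallest p in each list, the 3 genes most like the riser and the faller with the smallest p (Anxa4 and Anxa3), with a mean of at least 10 CPM, and list members that counts of 5 or fewer required, after their values were seen. The result for 1 gene that this rule takes is not reported here. The results were recomputed with DESeq2 1.42.0, with its size factors, with limma 3.58.1 voom, library totals, no filter, 5 CPM in 3 libraries, removal of mitochondrial and haemoglobin genes, each library left out in turn, a 2-fold minimum and a replicate block. Averaging replicates 2 and 3, dropping replicate 1 of both groups, a batch term for replicate 1, and division of the counts by 4 were added after seeing the data.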

Additional observations from a re-analysis of the deposited data

How the results depend on the processing

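No called annexin changed sign in any of the 18 alternatives that gave a fold change. Anxa3 was called in all 18, Anxa1, Anxa4, Anxa5 and Anxa8 in 17 and Anxa7 in 15. Anxa5 passed narrowly without CTM replicate 1, 2 or 3, at edgeR adjusted p of 0.049982, 0.0486 and 0.0489. Anxa7 did so without 4T1 replicate 3, at 0.0497. Ranges of the log2 fold change were -1.62 to -1.38 for Anxa3, -1.07 to -0.87 for Anxa1, -0.59 to -0.37 for Anxa5, 0.69 to 0.81 for Anxa4, 0.30 to 0.51 for Anxa7 and 1.17 to 1.37 for Anxa8. Anxa11, not called anywhere, turned positive at 0.037 with limma voom, 0.036 without both libraries numbered 1, 0.046 without CTM replicate 2, 0.025 without CTM replicate 3 and 0.13 without 4T1 replicate 1, and over the single libraries left out ranged from -0.10 to 0.13. The cause was not tested. With a 2-fold minimum 1 annexin was higher, Anxa8, and 1 lower, Anxa3, and 738 genes were higher and 832 lower. With replicates 2 and 3 averaged 0 annexins were higher and 1 lower, as 276 and 200 genes were, with 2 samples a group. Leaving out 1 library gave 2 to 3 annexins higher and 3 in each case lower, and 1334 to 3323 genes higher and 1208 to 3326 lower. The counts over all genes moved by over 1.5 times without CTM replicate 2 and without 4T1 replicate 2 (1496 and 1415), and, for lower genes alone, without CTM replicate 3 (1292) and 4T1 replicate 3 (1437). Limma voom gave 4514 higher and 4628 lower, and dropping replicate 1 of both groups gave 4239 and 4340. Library totals alone moved the median of all genes to -0.108 and kept all 6 annexin calls. The labels do not say that equal replicate numbers pair libraries. Deviations from the group means correlated at 0.0635, 0.0161 and 0.0121 for equal numbers and at -0.0577 to 0.0578 for unequal numbers. The replicate block gave the same 3 and 3 annexins, with 2232 genes higher and 2065 lower. The annexins had 207 counts or more in every library, but how many reads or molecules stand behind them is unknown, and this bears most on Anxa8, the lowest.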
